A study of Citrullus lanatus with 6 samples.

Results

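The sites described here are those at which a ClNAC56 peak was called in only 1 of the lists T2 and T3, the 2 distinct peak lists that were deposited. They were chosen by the positions of the authors' peak calls, which rest on the pileup of fragments and its significance in each list. A T2-only peak is a T2 peak on chromosomes 1 to 11 with no T3 peak overlapping it by 1 bp or more, and a T3-only peak is the converse. There were 354 T2-only peaks among the 2843 peaks of list T2 and 800 T3-only peaks among the 3287 peaks of list T3, which makes 1154 of 6130 in all. These are 12.5% of list T2 and 24.3% of list T3. The remaining 2489 T2 and 2487 T3 peaks are called shared.

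The peaks come from DNA affinity purification sequencing of leaf genomic DNA of watermelon, Citrullus lanatus. A protein expressed in vitro is offered naked DNA fragments, and the fragments it retains are sequenced. The labels give 3 samples made with ClNAC56 and 3 made with MBP, a maltose-binding protein that serves as the control. The labels name neither the cultivar nor the age of the leaves, and no label connects a list with a particular library. Because the DNA is stripped of chromatin, a peak shows at most where the protein can bind in vitro.

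NAC proteins are a large family of plant transcription factors. They bind DNA as dimers through a conserved domain near the N-terminus, while the C-terminal part, which varies between members, acts on transcription. Members are known for roles in meristem and organ boundary formation, secondary wall deposition, senescence, fruit ripening and responses to drought and salt. The base sequence and the genes at the sites were not analysed here.

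MACS2, the peak caller named in the submitters' processing notes, compares the pileup of fragments at each position with a local background. As background knowledge on the tool, it joins neighbouring positions that pass a significance limit and keeps the joined stretch only if it reaches a minimum length. A site can therefore miss a list by height, by length or by both. The sources used here do not give the settings for these lists. The shortest peak measured 304 bp in list T2 and 299 bp in list T3. The smallest −log10 p was 3.56 in each list.

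The overlap rule chose the members, so their absence from the other list is no finding, and all values below are descriptions of 1 list each. No test was made, since peaks are not replicates and no replicate list stands behind T2 or T3. Intervals cover counting error only, with peaks taken as independent. They hold no error between libraries. Comparison values beside them carry no interval of their own. A value inside or outside an interval is therefore a description and no test.

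The choice of 1 bp as the limit had no borderline cases. The T2-only peak closest to a T3 peak lay 350 bp from it, and the T3-only peak closest to a T2 peak lay 350 bp away as well. Among shared peaks the smallest overlap was 223 bp. It joined the T2 peak on chromosome 1 from 5850316 to 5850636 (fold 4.13) with the T3 peak from 5850414 to 5851006 (fold 4.23). The next smallest overlaps were 232 bp on chromosome 10 and 245 bp on chromosome 1.

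Single-list sites had a peak of the other list within 10 kb about as often as another peak of their own list. The shares were 16.7% of T2-only and 15.4% of T3-only peaks for the other list, and 15.3% and 18.4% for their own. The lists differ in their number of peaks, and these shares make no allowance for it. A gap to the other list follows from the rule that chose the sites. The median gap to the other list was 34478 bp for T2-only peaks (interquartile range 15019 to 70469 bp) and 40790 bp for T3-only peaks (16480 to 74807 bp). A gap of 1 kb or less was found at 6 of the 354 T2-only peaks (1.69%, 95% Wilson interval 0.779 to 3.65) and at 12 of the 800 T3-only peaks (1.5%, 0.860 to 2.60). Over all peaks, overlapping ones included, the shares were 87.8% in T2 and 76.0% in T3.

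Single-list summits were mostly covered by fewer fragments than shared ones. The rule used calls that rest on pileup, so the differences in fragments and fold given here are descriptions and nothing is read from them. T2-only summits had a median of 99.5 fragments (5th to 95th percentile 62 to 153), and T3-only summits had a median of 93 (59 to 148). Shared summits had a median of 143 in T2 (84 to 371) and of 137 in T3 (78 to 413). The upper quartile of the single-list summits, 114 in T2 and 113 in T3, was near the lower quartile of the shared ones, 113 and 107. Fold enrichment, the authors' ratio of summit pileup to background, ran from 1.39 to 6.97 in T2-only peaks with a median of 4.59. In T3-only peaks it ran from 2.27 to 7.63 with a median of 4.76. Their upper quartile, 5.12 in T2 and 5.40 in T3, was close to the lower quartile of the shared peaks, 5.07 and 5.31.

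Some single-list sites outranked a typical call of the list they were absent from. Of the T2-only peaks, 23 (6.50%, 4.37 to 9.56) had a fold above 5.93, the median fold of all T3 peaks, against 47.8% of all T2 peaks. Of the T3-only peaks, 101 (12.6%, 10.5 to 15.1) exceeded 5.82, the median fold of all T2 peaks, against 51.8% of all T3 peaks. The rule used calls that rest on the same values, so nothing is read from these lower shares.

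Single-list peaks were narrower than shared peaks of the same height. The rule used calls that also rest on a minimum length, so the difference is a description and nothing further is read from it. Each single-list peak was compared with the shared peaks of its own list whose summit pileup lay within 5% of its own, with each member given the same weight. The comparison drew on 2131 different shared T2 peaks and 2102 shared T3 peaks, and 1 T2-only peak had no match. The matched shared peaks had a median pileup of 22.2 in T2 against 22.3 for T2-only peaks, and of 22.8 in T3 for both. At this equal height the median width was 328 bp in T2-only peaks (95% interval of the median 324 to 331) and 359 bp in matched shared peaks. In T3 it was 327 bp (325 to 331) against 368 bp.

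Single-list peaks crowded at the shortest lengths a list holds. The limit just given for width applies here and to the width classes below. A width of at most 1.1 times the shortest peak, which is up to 334 bp in list T2 and 328 bp in list T3, was found at 209 of the 354 T2-only peaks (59.0%, 53.8 to 64.0), against 21.4% of all T2 peaks and 26.4% of the matched shared peaks. In T3 it was found at 409 of 800 (51.1%, 47.7 to 54.6), against 21.1% of all T3 peaks and 22.8% of the matched shared peaks. In both lists the matched value lay below the interval of the single-list peaks.

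**Figure D1:**
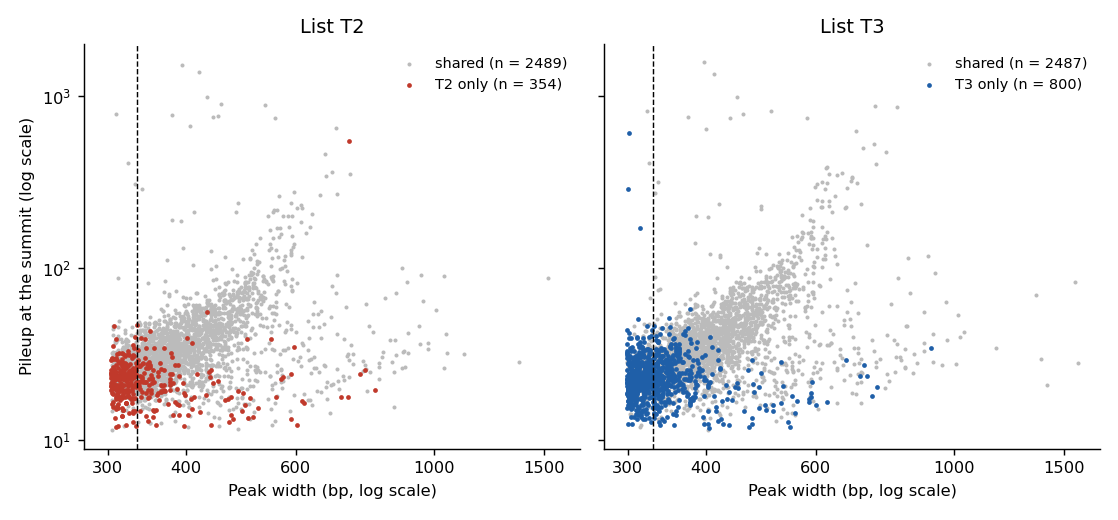
Width (x axis, bp, log scale) and summit pileup (y axis, log scale) of each peak on chromosomes 1 to 11, list T2 at left and list T3 at right, with shared peaks in grey and single-list peaks in colour. The dashed line is 1.1 times the shortest peak, and 209 of 354 T2-only and 409 of 800 T3-only peaks lie at or left of it.

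Seen from the whole list, the share of peaks with no counterpart was lower the wider the peaks were, up to the widest class. In T2, 41.7% of peaks of 304 to 319 bp were T2-only (131 of 314), 26.5% of those of 320 to 334 bp, 11.1% of those of 335 to 364 bp and 3.29% of those of 396 to 456 bp. In T3, 69.8% of peaks of 299 to 313 bp were T3-only (238 of 341), 48.6% of those of 314 to 328 bp, 39.8% of those of 329 to 358 bp and 5.69% of those of 389 to 448 bp. The widest class did not continue this order in T2, where 5.28% of peaks of 457 bp and more were T2-only. In T3 5.13% of peaks of 449 bp and more were T3-only.

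The narrowest peaks had the highest single-list share at each height below a pileup of 40 in both lists, and above it in T3. At a pileup of 25 to 30, T2 peaks up to 1.1 times the shortest width were T2-only in 24.8% of cases (39 of 157, 18.7 to 32.1), those over 1.3 times in 1.67% (2 of 120, 0.458 to 5.87). At the same height in T3 the shares were 48.1% (78 of 162, 40.6 to 55.8) and 7.23% (12 of 166, 4.18 to 12.2). At a pileup of 30 to 40 they were 55.8% (53 of 95, 45.8 to 65.4) and 1.75% (6 of 342, 0.806 to 3.77) in T3. At a pileup of 40 or more, 9 of 23 narrow T3 peaks were T3-only (39.1%, 22.2 to 59.2), while 0 of 755 wide ones were, with an upper Wilson limit of 0.506%. In T2 the narrow class at this height held 17 peaks, of which 1 was T2-only, too few for a comparison.

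**Figure D2:**
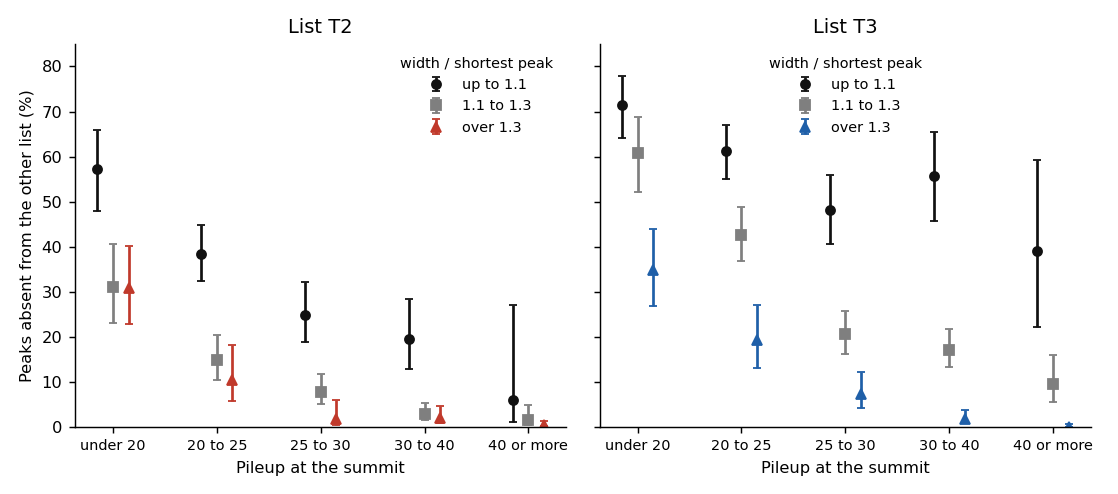
Share of peaks without a counterpart in the other list (y axis, %) by summit pileup (x axis) and by width relative to the shortest peak of the list (symbols), with 95% Wilson intervals. The narrowest peaks have the highest share in each pileup class below 40 in both lists, for example 48.1% against 7.23% at a pileup of 25 to 30 in T3.

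The height of single-list summits was set against the significance limit of the other list. The deposited −log10 p could be recomputed from the pileup and the background as a Poisson tail for 99.4% of T2 and 99.1% of T3 peaks within 0.02. The same formula gives the lowest whole pileup that would pass the smallest −log10 p of the other list at the member's own background. This limit had a median of 12 for T2-only and of 12 for T3-only peaks. T2-only summits were a median of 1.77 times as high as the limit (interquartile range 1.52 to 1.97), and T3-only summits 1.86 times (1.59 to 2.07). The ratio was at least 1.5 at 269 of the 354 T2-only peaks (76.0%, 71.3 to 80.1), against 92.7% of all T2 peaks. It was at least 1.5 at 654 of the 800 T3-only peaks (81.8%, 78.9 to 84.3), against 92.4% of all T3 peaks. It reached 2 at 73 T2-only peaks (20.6%, with 68.5% over the whole list) and at 261 T3-only peaks (32.6%, with 68.1% over the whole list). Pileup and background also decided the calls, so nothing is read from these lower shares.

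**Figure D3:**
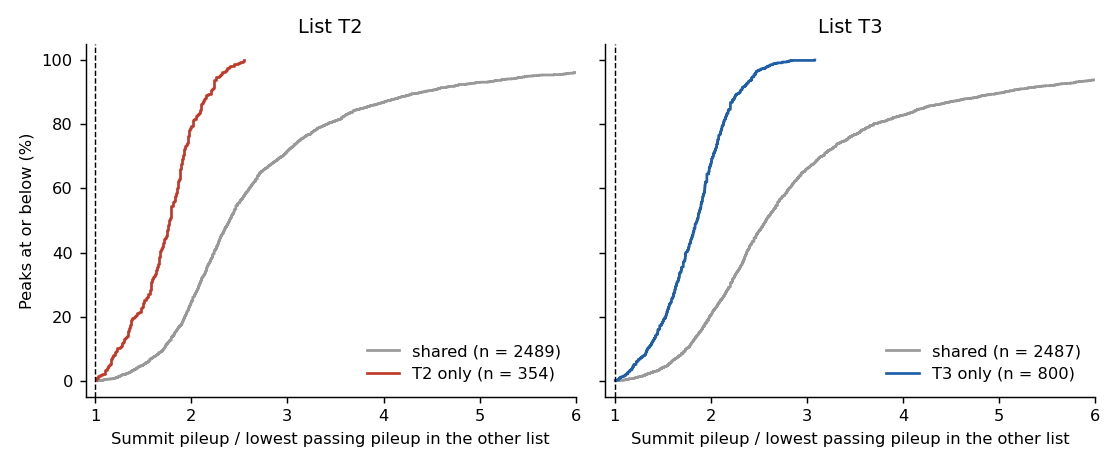
Cumulative share of peaks (y axis, %) by the ratio of their summit pileup to the lowest pileup that would pass in the other list at the same background (x axis, ends at 6), for shared peaks in grey and single-list peaks in colour. The medians are 1.77 for T2-only and 1.86 for T3-only peaks, and the dashed line at 1 is the limit itself. Pileup and background also decided the calls, so nothing is read from the difference between the curves.

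Shared pairs give a scale for these ratios. Among the 1407 pairs whose T2 pileup lay between 13.9 and 34.3, the 5th and 95th percentiles of the T2-only peaks, the T2 to T3 pileup ratio had its 2.5th and 97.5th percentiles at 0.736 and 1.21. Among the 1404 corresponding pairs of list T3, the T3 to T2 ratio had them at 0.813 and 1.33. A drop of this size would leave 321 of the 354 T2-only summits (90.7%) and 732 of the 800 T3-only summits (91.5%) above the limit. At least 92.7% of all T2 and 92.4% of all T3 peaks would stay above it too, since their ratio was 1.5 or more. The widths of the shared pairs are on another scale, in bp. The T2 minus T3 difference had percentiles of -121 and 93.0 bp, and the T3 minus T2 difference of -94.9 and 112 bp. A loss of width up to the upper percentile would take many members to the shortest length of the other list or under it. These were 303 T2-only peaks (85.6%) and 747 T3-only peaks (93.4%). A shared peak of median size, 386 bp for list T2 and 402 bp for list T3, would fall there as well. Nothing is therefore read from these shares. Shared pairs are pairs that passed in both lists, so they leave out the largest losses, and the background was taken as equal in both lists. In these pairs the T2 to T3 ratio of backgrounds had percentiles of 0.912 and 1.19. Height and length cannot be told apart here, since a lower pileup also shortens the stretch that passes. Whether a given site was lost by height or by length was not tested.

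Neither range covered 37 T2-only peaks (10.5%) and 38 T3-only peaks (4.75%). No share over all peaks is given beside these counts, so nothing is read from them. These peaks were picked by width and by height over the limit, so their large widths follow from the choice. The T2-only ones were 396 to 805 bp wide, with a median of 472 bp. The T3-only ones were 418 to 917 bp wide, with a median of 489 bp. Their folds had medians of 3.85 and 4.18 and maxima of 6.79 and 6.03. The T2-only peak of highest fold among them lay on chromosome 3 from 25198432 to 25198867, and the T3-only peak on chromosome 8 from 25590490 to 25590910. The T2-only ones occurred on 11 chromosomes and the T3-only ones on 10.

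At equal height, single-list peaks stood on a higher background. The background at the summit had a median of 4.0 in T2-only peaks (95% interval of the median 3.95 to 4.0) against 3.5 in matched shared peaks. In T3 the medians were 4.0 and 3.5 as well. Over all shared peaks, without matching, the median was 4.10 in T2 and 4.04 in T3, so the members showed no excess there. The calls rest on pileup against background, so nothing is read from the order at equal pileup. Under that matching the median fold was accordingly 4.59 against 5.03 in T2 and 4.76 against 5.24 in T3. The lowest background of the list was found at 55 T2-only peaks (15.5%, 12.1 to 19.7), against 12.2% of all T2 peaks and 21.8% of matched shared peaks. It was found at 98 T3-only peaks (12.2%, 10.2 to 14.7), against 12.3% of all T3 peaks and 21.9% of matched shared peaks. When shared peaks were matched on fold in place of pileup, the order was reversed, with median backgrounds of 5.0 in T2 and 4.57 in T3 for the matched peaks. The narrow width remained under that matching, with matched shared medians of 357 bp (T2) and 364 bp (T3) against 328 and 327 bp.

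The 10 T2-only peaks of highest fold lay on 9 chromosomes, with folds of 6.22 to 6.97. The first, on chromosome 2 from 35434568 to 35434922, had 114 fragments at its summit (exact Poisson 95% interval 94 to 137) over a background of 2.81. Its fold was 6.97, its width 355 bp, and the nearest T3 peak was 55.7 kb away. The second, on chromosome 3 from 25198432 to 25198867, was 436 bp wide with a fold of 6.79. A peak on chromosome 5 from 18913885 to 18914214 followed with a fold of 6.76 and a width of 330 bp. The remaining 7 of the set had folds between 6.22 and 6.68. Of the 10 peaks, 7 had the lowest background of the list within 0.2%, against 12.2% of all T2 peaks. A choice by fold favours a low background, so nothing is read from this count. Of the 10 peaks, 5 were no wider than 334 bp, against 21.4% of all T2 peaks. The summits of the 10 peaks were 2.24 to 2.55 times as high as the limit of list T3.

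The 10 T3-only peaks of highest fold lay on 7 chromosomes, with folds of 6.91 to 7.63. The first, on chromosome 1 from 15705010 to 15705398, had 114 fragments (94 to 137), a fold of 7.63 and a width of 389 bp, and no T2 peak lay within 148 kb. The second, on chromosome 9 from 162706 to 163092, had 151 fragments (128 to 177) and a fold of 7.60 over a background of 4.0. Its summit was 3.08 times as high as the limit of list T2, the highest ratio among the 800 T3-only peaks. The third, on chromosome 9 from 23048751 to 23049084, had a fold of 7.50 and a width of 334 bp. Of the 10, 6 had the lowest background, against 12.3% of all T3 peaks, which a choice by fold favours here too. Of the 10, 5 were no wider than 328 bp, against 21.1% of all T3 peaks.

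A few T3-only peaks were highly significant. Of the 906 T3 peaks with a −log10 q above 20, 6 (0.662%) had no T2 counterpart. Of the 736 T2 peaks past the same limit, 0 had no T3 counterpart. This limit and these peaks were chosen after their values were seen. The peak on chromosome 9 from 27608815 to 27609115 had a −log10 q of 67.0, with 2483 fragments (2386 to 2583) over a background of 267 and a fold of 2.27. Its width was 301 bp, 2 bp above the shortest of the list. The peak on chromosome 7 from 17432748 to 17433047 had a −log10 q of 59.4, a fold of 3.27 and a width of 300 bp. The peak on chromosome 11 from 7793511 to 7793824 had a −log10 q of 30.3, a fold of 2.97 and a width of 314 bp. These 3 also had the highest backgrounds of all T3-only peaks. Of the 6, 4 were no wider than 328 bp.

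The 5 T2-only peaks of highest background were wider than the 5 T3-only peaks of highest background. The 5 T3-only peaks of highest background, from 14.0 to 267, were 300 to 314 bp wide. The 5 T2-only peaks of highest background, from 13.0 to 393, were 433 to 730 bp wide, and their folds were only 1.39 to 2.55. The T2-only peak at the top, on chromosome 11 from 8305458 to 8306187, had 2448 fragments (2352 to 2547) and a fold of 1.39. Its nearest T3 peak lay 2254 bp away, from 8308441 to 8309021, with a fold of 1.32. With 5 peaks on each side, and no other peaks of like background set beside them, the contrast is a description of these sites.

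Wide single-list peaks often had their summit near an edge. A width over 1.5 times the shortest was found at 31 T2-only peaks (8.76%), against 20.6% of all T2 peaks, and at 39 T3-only peaks (4.88%), against 23.1% of all T3 peaks. In the T2-only ones the summit lay in the first 20% of the peak at 14 and in the last 20% at 10, together 77.4% (60.2 to 88.6), and at 0 of 31 between 30% and 70% of the length, where 31.5% of wide shared T2 peaks matched in height had it. Of the 39 wide T3-only summits, 9 (23.1%) lay there, with 35.7% of the matched. Of the 556 shared T2 peaks as wide, 8.81% had the summit in the first or last 20% (off-centre), but they were taller, with a median pileup of 51.3 against 17.9. Over 154 wide shared T2 peaks matched in height, 43.9% were off-centre. In T3 the off-centre share was 43.6% (17 of 39, 29.3 to 59.0), against 6.10% of the 721 wide shared peaks and 35.9% of 178 matched in height, which lies within the interval. Over all widths, 37 T2-only peaks (10.5%, 7.68 to 14.1) were off-centre, against 3.66% of all T2 peaks and 8.93% of those matched, and 38 T3-only peaks (4.75%, 3.48 to 6.45), against 3.13% of all T3 peaks and 8.67% of those matched.

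The wide members had low folds, as did wide shared peaks of matched height. Their median fold was 3.47 in the T2-only set, with an interquartile range of 2.78 to 3.82. It was 3.83 in the T3-only set (3.42 to 4.37). Wide shared peaks of matched height had medians of 3.8 in T2 and 4.27 in T3, within these ranges. The members' median ratio to the limit of the other list was 1.32 in T2 and 1.45 in T3. The widest T2-only peak lay on chromosome 5 from 4562254 to 4563058 and was 805 bp wide with a fold of 4.37. The next, on chromosome 2 from 1648374 to 1649149, was 776 bp wide with a fold of 2.97 over a background of 8.0. The widest T3-only peak lay on chromosome 5 from 15208427 to 15209343 and was 917 bp wide with a fold of 4.41. The other 4 of the widest T3-only peaks were 716 to 751 bp wide with folds of 3.67 to 5.47.

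**Figure D4:**
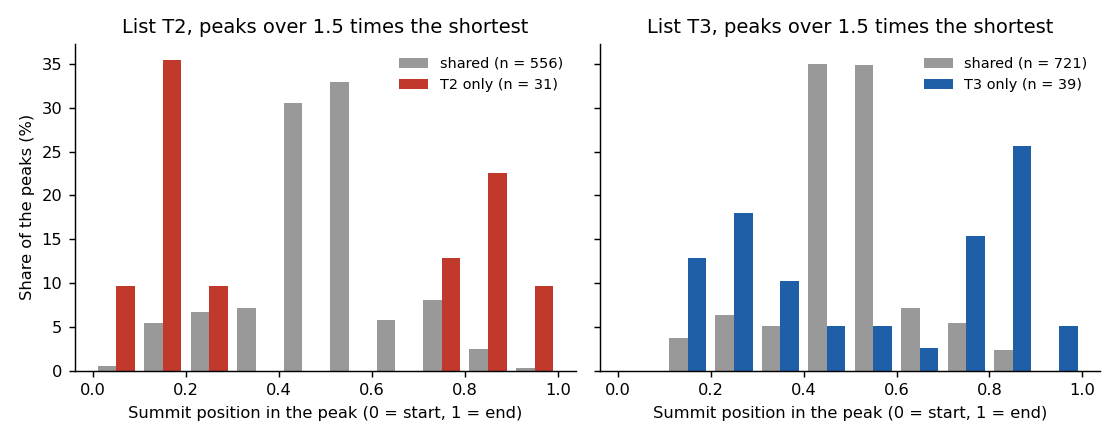
Position of the summit within the peak (x axis, 0 at the start and 1 at the end) for peaks over 1.5 times the shortest width, as a share of each set (y axis, %), with shared peaks in grey and single-list peaks in colour. The 31 T2-only summits lie toward either edge with 0 between 0.3 and 0.7, while 9 of the 39 T3-only summits lie there. The shared peaks drawn are taller; of those matched in height, 31.5% in T2 and 35.7% in T3 have the summit there.

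Single-list peaks occurred on all 11 chromosomes. The T2-only share of a chromosome's T2 peaks ran from 8.53% on chromosome 9 (25 of 293, 5.85 to 12.3) to 15.6% on chromosome 7 (38 of 243, 11.6 to 20.7). The T3-only share ran from 19.5% on chromosome 11 (57 of 293, 15.3 to 24.4) to 27.3% on chromosome 3 (70 of 256, 22.2 to 33.1). In each list the intervals of the lowest and the highest chromosome overlapped. Chromosome 9 was lowest for T2-only peaks but had 25.3% T3-only peaks (91 of 359).

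The ends of the chromosomes held single-list peaks in about the share of the whole list. The first and last 20% of a chromosome, taking the last peak end as its length, held 170 T2-only peaks (48.0%, 42.9 to 53.2), against 49.6% of all T2 peaks, and 402 T3-only peaks (50.2%, 46.8 to 53.7), against 49.9% of all T3 peaks. Shared peaks matched in pileup gave lower values, 43.2% in T2 and 44.0% in T3, the latter below the T3-only interval. Matched on fold, they gave 49.7% and 49.8%, within both intervals. The central 20% held 58 T2-only peaks (16.4%, 12.9 to 20.6), against 12.6% of all T2 peaks, which lies below that interval, and 14.4% of the matched, which lies within it. It held 109 T3-only peaks (13.6%, 11.4 to 16.2), against 12.4% of all T3 peaks and 13.7% of the matched.

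**Figure D5:**
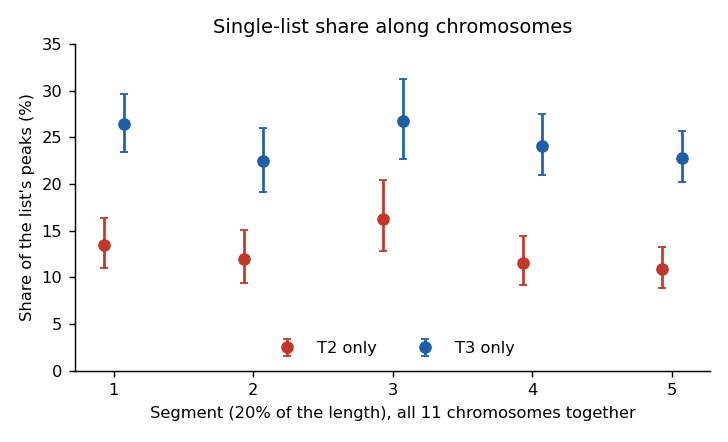
Share of a list's peaks that have no counterpart in the other list (y axis, %) in each 20% segment of the chromosomes (x axis, 11 chromosomes together), with 95% Wilson intervals. The share runs from 10.9% to 16.2% for T2-only and from 22.4% to 26.8% for T3-only peaks.

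Spacing within a list was close to that of all its peaks. A neighbouring peak of the same list within 10 kb was found at 54 T2-only peaks (15.3%, 11.9 to 19.4), against 17.3% of all T2 peaks and 16.9% of the matched. It was found at 147 T3-only peaks (18.4%, 15.8 to 21.2), against 19.5% of all T3 peaks and 19.97% of the matched. These values, from matching on pileup, lay within the intervals. Shared peaks matched on fold had such a neighbour more often, at 19.97% (T2) and 21.5% (T3), above the interval in both lists. This nearest neighbour was a shared peak for 46 of the 54 T2-only peaks (85.2%), with 89.0% over the 491 T2 peaks that had such a neighbour. It was a shared peak for 108 of the 147 T3-only peaks (73.5%), with 77.5% over the 641 such T3 peaks. A peak of the other list lay within 10 kb of 59 T2-only peaks, and it was a T3-only peak at 17 of them. Of all T3 peaks, 24.3% were T3-only. A T2 peak lay within 10 kb of 123 T3-only peaks, and it was a T2-only peak at 19, where 12.5% of all T2 peaks were T2-only.

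At 3 places a T2-only and a T3-only peak lay within 1 kb of each other. On chromosome 2 the T3-only peak from 547271 to 547761 (fold 4.25, 491 bp wide) was followed 350 bp further on by the T2-only peak from 548111 to 548420 (fold 4.07, 310 bp wide). On chromosome 9 the T3-only peak from 5988328 to 5988694 (fold 5.49) was followed 358 bp further on by the T2-only peak from 5989052 to 5989363 (fold 3.94). On chromosome 1 the T2-only peak from 17785942 to 17786288 (fold 4.45) preceded the T3-only peak from 17787288 to 17787612 (fold 6.18) by 1000 bp. In the other near cases the neighbour was a shared peak, as on chromosome 10, where the T2-only peak from 5495506 to 5495870 (fold 6.04) lay 406 bp from a shared T3 peak from 5496276 to 5496814 (fold 3.51), and on chromosome 5, where the T3-only peak from 15971086 to 15971396 (fold 4.22) lay 380 bp from a shared T2 peak from 15970305 to 15970706 (fold 5.38).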

How the data were processed

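The deposited tables are peak lists on 3 sheets. Bowtie2, Picard, MACS2 and bedtools were used, per the submitters' processing notes; the sources used here give no versions, settings or genome build. Sheet T1 equals T3 in all 3288 rows and was not counted again. The authors deposited a pileup signal and a fold enrichment ratio per peak, per the file headers. Columns with damaged headers were read as the deposited −log10 p and −log10 q, from the MACS2 column order. No label ties a list to a library, and whether libraries were pooled is not stated.

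Fragment numbers are the pileup divided by 0.224 in T2 and 0.245 in T3, of which 100% of pileups are whole multiples within 0.0051. The total depth is unknown. The background is (pileup + 1) / fold − 1. Scaffold peaks (3 in T2, 1 in T3) were left out. Medians have exact order-statistic intervals and shares Wilson intervals, both at 95%. Code (Python 3.11.15, scipy 1.17.1) was tested on simulated lists for the number and place of single-list peaks, near-minimum widths and median background. The near-minimum share of matched peaks was tested as well, and the other steps were not. Named peaks are, per list, the 10 of highest fold, the 5 widest, the 5 of highest background and the 3 nearest to a peak of the other list. Members, lists and settings were chosen with earlier results of these data known.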

Additional observations from a re-analysis of the deposited data

How the results depend on the processing

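Of 82 values of the single-list peaks under alternative settings, 69 stayed within 1.5 times the count or within the interval of the reported value. Some of these settings, such as including scaffolds, changed few peaks. Of 46 values of the matched shared peaks, 32 were counted as unchanged and 14 as moved. The number of T2-only peaks ran from 261 to 402 and that of T3-only peaks from 644 to 846. With sharing defined by summits within 100 bp, 53.0% of T2-only peaks were of near-minimum width and their median width was 331.5 bp. With −log10 q of at least 5 in list T2 only, the near-minimum share was 64.4%. A limit 5% above the shortest width gave 37.0% in T2 and 29.8% in T3 (matched shared peaks 13.2% and 8.61%), and a limit of 1.2 times gave 77.1% and 79.8% (53.1% and 44.0%). The first or last 10% of chromosomes held 25.7% of T2-only and 25.8% of T3-only peaks. A gap of at most 10 kb to the other list was found at 16.7% and 15.4%. Folds above the lower quartile of the other list were found at 37.6% and 48.1%. The last 4 settings move the value by their construction. Matching on background, added after seeing the data, gave matched near-minimum shares of 15.9% in T2 and 11.5% in T3. No paired analysis was possible because no list is tied to a numbered sample. Leaving out a replicate was not possible for the same reason. Depth limits each fragment number, and the fewest fragments at a single-list summit were 53 in T2 and 48 in T3.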
